A study of Mus musculus with 2 samples.

Results

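The genes Gm16195, Vmn1r224, Gm45571 and Gm43414 carry a copy of the same stretch of a B1 repeat, and a small RNA of that stretch was among the most abundant sequences of testes without Tdrkh. The members are all sequences of 18 to 40 nt that matched a GENCODE M21 transcript of these 4 genes exactly and in sense, which came to 82 of the 22794309 distinct sequences in the 2 count tables. Of the 82, 53 were listed in Tdrkh-/- and 32 in Tdrkh+/-, with 3 in both. Of the 22794309, 12118721 were listed in Tdrkh-/- and 11808018 in Tdrkh+/-, so most of these too were in 1 library only. The 4 genes were chosen by the ratio of their reads of 24 to 30 nt, so that ratio is given as a description and supports nothing. In sense, 4407 genes had 500 or more reads of that size in both libraries together, and 352 of them (7.99%) were at least 2-fold higher per microRNA read in Tdrkh-/-. The mark of 1024-fold was passed by 6 (0.136%), the 4 members among them.

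The study compared small RNAs of whole testes at 11 days after birth, with 1 library from Tdrkh-/- mice and 1 from Tdrkh+/- mice, each pooled from 5 pairs of testes. Exons 2 to 4 of Tdrkh, with the start codon, had been deleted with EIIa-Cre, so the controls carry 1 deleted allele and are not wild type. The animals were of mixed C57Bl6/129 background, and the knockout had been made as 2 independent lines. The tables hold small RNAs and no messenger RNA levels, so the tissue was not checked against marker genes, and in these pools fewer cells of a type and less RNA per cell cannot be told apart. The libraries held 60973266 reads in Tdrkh-/- and 43172204 in Tdrkh+/-, with 2486303 and 2363475 microRNA reads as the scale for ratios. With 1 library per genotype there is no replicate check, and every interval covers counting error only, since the reads carry no molecular identifiers.

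B1 elements are short interspersed repeats of rodents that descend from the 7SL RNA of the signal recognition particle and lie in many transcripts, in introns, untranslated regions and noncoding RNAs. Piwi-interacting RNAs (piRNAs) guide PIWI proteins in germ cells against such repeats. Primary piRNAs usually begin with U, while secondary ones made by the ping-pong cycle tend to have A at position 10 and to overlap their partner on the opposite strand by 10 nt. Tdrkh, which has Tudor and KH domains and sits on mitochondria, takes part in the trimming of piRNA precursors.

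The sequences that carry the result share 1 segment, and they are shown first because the libraries differ in which version of it they list. In the segment shared by the 4 genes the capitals mark the most abundant member. In the next 2 lines the capital T at position 17 is the base that sets this copy apart from a more common B1 version. In the T3C and T2A lines the capital marks the base that differs from the members, and in the last line capitals run from the first differing base to the 3′ end. Positions are counted from 1 at the 5′ end.
Shared segment: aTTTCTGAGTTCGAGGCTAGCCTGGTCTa
27-nt RNA, 145466 reads in Tdrkh-/- and 0 in Tdrkh+/-: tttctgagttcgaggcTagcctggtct
22-nt RNA, 102323 reads in Tdrkh-/- and 0 in Tdrkh+/-: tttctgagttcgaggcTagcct
T3C form, 1370 reads in Tdrkh-/- and 0 in Tdrkh+/-: ttCctgagttcgaggctagcctggtct
T2A form, 0 reads in Tdrkh-/- and 1744 in Tdrkh+/-: tAtctgagttcgaggctagcctggtct
T2A form at 22 nt, 0 reads in Tdrkh-/- and 2191 in Tdrkh+/-: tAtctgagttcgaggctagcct
Changed 3′ end, 118 reads in Tdrkh-/- and 97 in Tdrkh+/-: tttctgagttcgaggctagcctgAATT

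The segment lay in exons of all 4 genes. Coordinates are those of GRCm38. In Gm16195 (ENSMUSG00000087308.1), a long intergenic noncoding RNA, the 27-nt sequence lay at chr17:29021347-29021373 on the plus strand, in exon 1 of 2. Vmn1r224 (ENSMUSG00000091151.2) encodes a receptor of the vomeronasal V1R family, and its copy at chr17:20422174-20422200, plus strand, lay in the 3′ UTR in exon 3 of 3 and in 8 of 9 annotated transcripts. Gm45571 (ENSMUSG00000109794.1) is a second long intergenic noncoding RNA, with its copy at chr8:28527827-28527853 on the minus strand in exon 3 of 3. Gm43414 (ENSMUSG00000104935.1) is a gene of 1 exon in the annotation class TEC, with its copy at chr3:37711089-37711115 on the plus strand.

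Member reads were almost all of 1 segment and of 1 library. In sense, Tdrkh-/- had 119629 reads at 18 to 23 nt where Tdrkh+/- had 28. At 24 to 30 nt the members had 180365 reads in Tdrkh-/- against 33 in Tdrkh+/-. The 24 to 30 nt reads came from 13 sequences in Tdrkh-/- and 11 in Tdrkh+/-, with 0 shared. Most of all distinct sequences were likewise listed in 1 library only. The ratio of these member reads per microRNA read was 5196 (95% interval 3699 to 7548). Without the reads at the leading 5′ end, which is the 5′ end of the 27-nt RNA, 89 reads remained in Tdrkh-/- against 33 in Tdrkh+/-, and the ratio was 2.56 (1.70 to 3.95). At 31 to 37 nt, where 77.3% of the 4407 genes were at least 2-fold higher in Tdrkh-/-, the members had 76 reads in Tdrkh-/- against 3 in Tdrkh+/- and the ratio was 24.1 (7.93 to 119). At 38 to 40 nt there were 43 and 14.

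The 4 genes could not be told apart by their reads. Of the member reads of 24 to 30 nt in Tdrkh-/-, 99.8% came from 5 sequences found in all 4 genes and 0.0493% from sequences in 1 of them. Divided equally among the genes each sequence matches, Gm16195 had 12854 reads at 24 to 30 nt in Tdrkh-/-, against 0 in Tdrkh+/-, which is at least 4073-fold higher against a floor of 3 counts per library. Vmn1r224 had 12854 and 0.104, the second taken as 0, again at least 4073-fold, and Gm45571 12836 and 0, at least 4067-fold. Gm43414 had 12859 and 8.19 divided reads, a ratio of 1528 (775 to 3540), so its lower ratio rests on 8.19 divided reads of Tdrkh+/-. Before division Gm43414 had 29 reads of that size in Tdrkh+/-, Gm16195 and Vmn1r224 2 each and Gm45571 0. The divided values leave out sequences that match structural RNA genes, and the undivided values keep them. The interval treats rounded divided reads as counts. Ranked by these values, the members took ranks 2 to 5, after the pseudogene Ccnb2-ps at rank 1 and before Gm10203 at rank 6. Gm10203, which does not hold the 27-nt sequence, had 4066 divided reads in Tdrkh-/- and 0 in Tdrkh+/-, at least 1288-fold. It does hold the 24-nt member sequence at the leading 5′ end, with 4959 undivided reads in Tdrkh-/-. Member sequences made up 8.13% of its divided Tdrkh-/- reads.

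The 27-nt sequence was held by 14 genes, and the same Tdrkh-/- reads entered each of them. Ash1l, a histone methyltransferase gene, had 14099 divided reads of that size in Tdrkh-/- against 2337 in Tdrkh+/-, with a ratio of 5.73. In the cyclin B2 pseudogene Ccnb2-ps the values were 12856 and 3.0, with a ratio of 4074 (1394 to 19758) that rests on these 3.0 divided reads of Tdrkh+/-. Eml1, a microtubule-binding protein gene, had 12953 and 258, Prcp, a carboxypeptidase gene, 12887 and 49.9, and Rnf8, a ubiquitin ligase gene of DNA repair, 13412 and 1426. Il17rd, a signalling inhibitor named here after its values were seen, had 21984 and 38789, a ratio of 0.539. The Tdrkh-/- level thus lay between 12836 and 14099 divided reads in 13 of the 14 genes, and the ratio followed how many other reads a gene had in Tdrkh+/-. Member sequences made up 99.98% of the divided Tdrkh-/- reads of Ccnb2-ps, 91.2% of those of Ash1l and 58.5% of those of Il17rd.

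**Figure D1:**
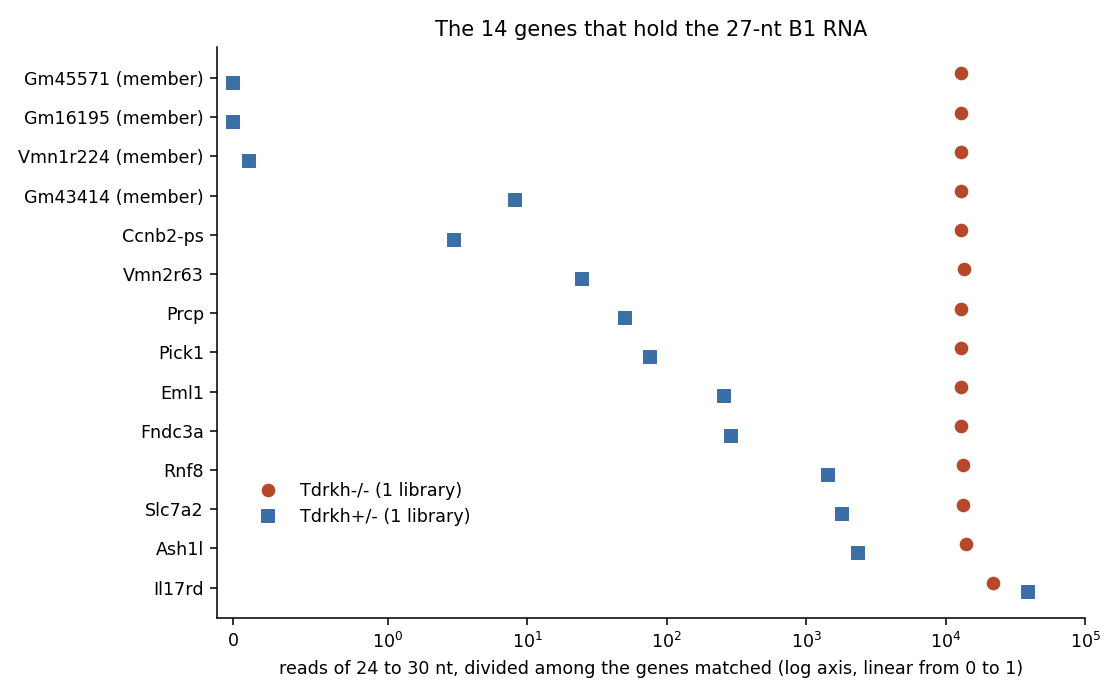
Reads of 24 to 30 nt in sense, divided among the genes each sequence matches, for the 14 genes that hold the 27-nt sequence, in Tdrkh-/- (circles) and Tdrkh+/- (squares), on a log axis that is linear from 0 to 1. The Tdrkh-/- values lie between 12836 and 21984, while the Tdrkh+/- values run from 0 in Gm16195 and Gm45571 to 38789 in Il17rd.

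In Tdrkh-/- the RNA had a fixed 5′ end and 2 preferred lengths. Of 180365 member reads of 24 to 30 nt, 99.95% began at the leading 5′ end, against 0 of 33 in Tdrkh+/-, a share whose 95% Wilson interval reaches 10.4%. The 27-nt form had 145466 reads and ranked the 7th most abundant of all sequences listed in Tdrkh-/-, microRNAs included, and the 22-nt form, with 102323, ranked the 12th. Forms of 26, 21, 23, 24 and 25 nt had 25568, 9725, 5414, 4959 and 2591 reads in Tdrkh-/-, and the 28-nt form had 1456. Over 18 to 30 nt the 27-nt form took 48.8% of the reads of this version, the 22-nt form 34.3% and the 26-nt form 8.57%. In Tdrkh+/- each of these lengths was listed with 0 reads.

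Few reads that began at the leading 5′ end were longer than 30 nt. The most abundant members of 31 to 37 nt in Tdrkh-/- began at the leading 5′ end, had lengths of 32, 31 and 35 nt and numbered 26, 15 and 13 reads, with 0 in Tdrkh+/- for each. All 3 matched Gm43414 and not the other members. Counting all reads that begin with the first 18 nt of the RNA, whatever their 3′ end, there were 261 of 31 to 37 nt and 198764 of 24 to 30 nt in Tdrkh-/-. Across the 4407 genes the median share of 31 to 37 nt among reads of 24 to 37 nt was 67.2% in Tdrkh-/- and 17.03% in Tdrkh+/-, so reads at the leading 5′ end were of piRNA size and below in a library where most host genes gave longer reads.

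A second version of the same segment differed in its 3′ end. The C form, which has the substitution T17C and is held by 467 genes at 27 nt where the T form is held by 14, had 41247 reads of 18 to 30 nt at the leading 5′ end in Tdrkh-/- and 0 in Tdrkh+/-. It took 55.6% of the 74125 Tdrkh-/- reads that were 1 base away there. At 22 nt it had 16347 reads, at 26 nt 11039 and at 27 nt 2817, all in Tdrkh-/-. Of its reads of 26 and 27 nt together, 20.3% (19.7 to 21.01) were 27 nt, against 85.1% (84.9 to 85.2) in the T form. The C form thus ended mostly 1 base earlier, while the 22-nt form was prominent in both versions.

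Reads 1 base away of the segment were listed in both libraries, and at the leading 5′ end, where Tdrkh+/- had 0 exact reads, they were listed there too. Over all positions of the members, those with exactly 1 substitution and 24 to 30 nt numbered 43899 in Tdrkh-/- against 3039 in Tdrkh+/-, a ratio of 13.7 (13.2 to 14.3), where the exact matches gave 5196. Without those at the leading 5′ end there were 1970 and 879, a ratio of 2.13 (1.97 to 2.31). Without reads that match some other transcript exactly, mainly the C form, there were 17058 and 2787, a ratio of 5.82 (5.59 to 6.06). At 31 to 37 nt the counts were 4974 and 471, a ratio of 10.04 (9.13 to 11.1).

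At the leading 5′ end the 2 libraries listed different substitutions and shared no sequence 1 base away. In Tdrkh-/- 66 of the 90 possible substitutions were listed over 18 to 30 nt, T2A had 0 reads, and between positions 1 and 7 the single substitution listed was T3C with 2990 reads. In Tdrkh+/- all 4625 such reads carried T2A. After T17C the most abundant in Tdrkh-/- were T25G with 3733 reads, T3C, A18G with 1892 and T25C with 1530. The T25G sequence of 27 nt, with 3148 reads in Tdrkh-/- and 0 in Tdrkh+/-, matched 1 gene of the annotation exactly. T2A and T3C matched no transcript of the annotation at 27 nt. At 24 to 30 nt the sequences 1 base away at the leading 5′ end numbered 267 in Tdrkh-/- and 7 in Tdrkh+/-. Over all positions of the members they numbered 408 and 138, with 11 in both, so few were shared there as well.

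The T2A reads of Tdrkh+/- had the same 2 main lengths as the T form of Tdrkh-/-, 22 and 27 nt, but in the other order. In the T form of Tdrkh-/-, 34.3% of reads of 18 to 30 nt were 22 nt, 8.57% were 26 nt and 48.8% were 27 nt, and the T2A reads of Tdrkh+/- had 47.4%, 6.96% and 37.7% at these lengths. Of reads of 26 and 27 nt together, 27-nt reads made up 85.1% (84.9 to 85.2) of the T form in Tdrkh-/- and 84.4% (82.8 to 85.9) of the T2A form in Tdrkh+/-, and these intervals overlap. The T3C reads of Tdrkh-/- gave 83.2% (81.4 to 84.96). By this share the T2A form was closer to the T form than to the C form (20.3%). Of the C form reads of 18 to 30 nt in Tdrkh-/-, 39.6% were 22 nt and 6.83% were 27 nt.

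**Figure D2:**
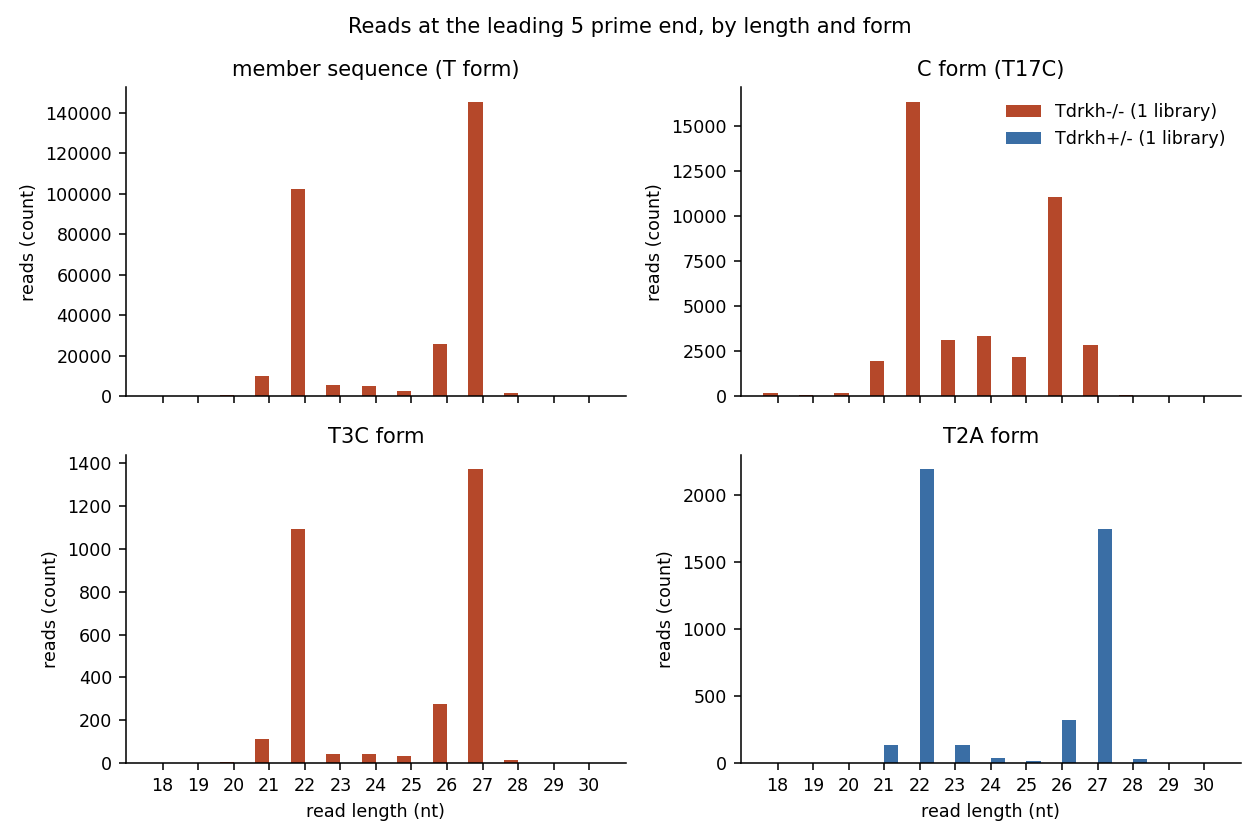
Reads at the leading 5′ end by length for the T form, the C form (T17C), the T3C form and the T2A form, in Tdrkh-/- (left bar of each pair) and Tdrkh+/- (right bar), on a linear axis that differs between panels. The T, C and T3C forms have bars in Tdrkh-/- alone and the T2A form in Tdrkh+/- alone, with 22 nt and 26 or 27 nt the tallest.

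The set of substitutions around the 27-nt RNA was compared with that around other abundant sequences, because the neighbours of any abundant sequence include reads with base-calling errors. For a 27-nt sequence 81 sequences lie 1 substitution away. Of these, 60 were listed in Tdrkh-/-, at 21 of 27 positions, with positions 1, 2 and 4 to 7 empty, and 1 was listed in Tdrkh+/-. For the 50 most abundant other sequences of 24 to 30 nt in each library, leaving out microRNAs and 2 Tdrkh-/- sequences that begin with the first 15 nt of the B1 RNA, 0 had an empty position in either library. In Tdrkh-/- the lowest share of neighbours listed was 94.3% and the median 100%, where the B1 RNA had 74.1%. In Tdrkh+/- the comparison sequences had at least 13370 exact reads each and the B1 RNA had 0, so its 1 neighbour is given as a count and not compared with theirs. The same 6 positions were empty in Tdrkh-/- around its forms of 21, 22, 24 and 26 nt and around the C form at 22 and 26 nt.

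At position 2 the Tdrkh-/- value could be set beside other abundant sequences. Of the 50 comparison sequences of Tdrkh-/-, 11 have T there, and their T2A neighbours had 1.79 to 3.31% of the reads of the exact sequence. The B1 RNA had 145466 exact reads and 0 T2A reads in Tdrkh-/-. In Tdrkh+/- it had 0 exact reads and 1744 T2A reads. Of the 50 comparison sequences of Tdrkh+/-, 8 have T at position 2, and their T2A neighbours had 2.19 to 2.77% of the exact reads. All of these were chosen for their exact reads, so a T2A count beside 0 exact reads has no counterpart among them.

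**Figure D3:**
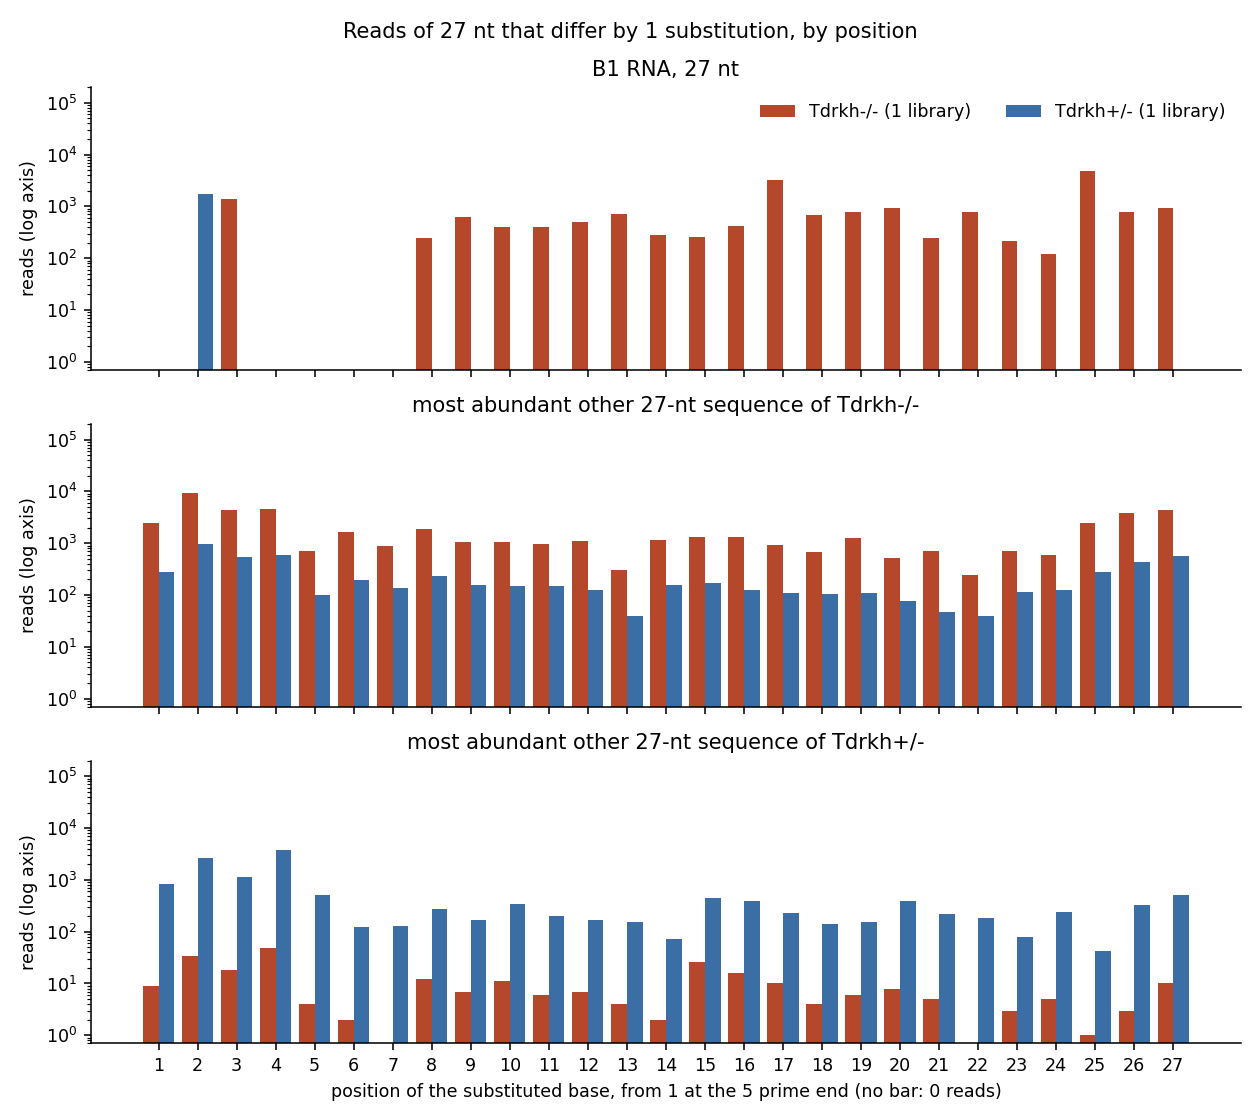
Reads of 27 nt that differ by 1 substitution from the B1 RNA (top) and from the most abundant other 27-nt sequence of Tdrkh-/- (middle) and of Tdrkh+/- (bottom), by position of the substituted base, in Tdrkh-/- (left bar) and Tdrkh+/- (right bar) on a log axis. The B1 RNA has bars at position 3 and from position 8 on in Tdrkh-/- and at position 2 alone in Tdrkh+/-, while each comparison sequence has bars at all 27 positions in the library where it is most abundant.

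In Tdrkh+/- reads with 3 substitutions to the 27-nt RNA outnumbered those with 0, 1 or 2. At 27 nt there were 145466 reads in Tdrkh-/- and 0 in Tdrkh+/- that matched the RNA, 18716 and 1744 with 1 substitution, 9935 and 493 with 2, and 8853 and 2917 with 3. In Tdrkh+/- 78.9% of those with 2 substitutions carried T2A as 1 of them, but 10.7% of those with 3 did. For the most abundant other 27-nt sequence of Tdrkh-/- the counts fell with each step in both libraries, with 274969, 50237, 16132 and 5274 reads in Tdrkh-/- and 32587, 6091, 2157 and 963 in Tdrkh+/-. Around the B1 RNA the Tdrkh+/- count was thus highest at 3 substitutions, where it was still below the Tdrkh-/- count. Those 2917 reads came from 2302 of 78975 possible sequences, and whether they derive from the same RNA was not tested. The comparison sequence of Tdrkh-/- matched 1 gene in sense, where the 27-nt RNA matched 14 and its C form 467. The comparison is thus not matched for the number of genes that hold a sequence or a near copy.

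**Figure D4:**
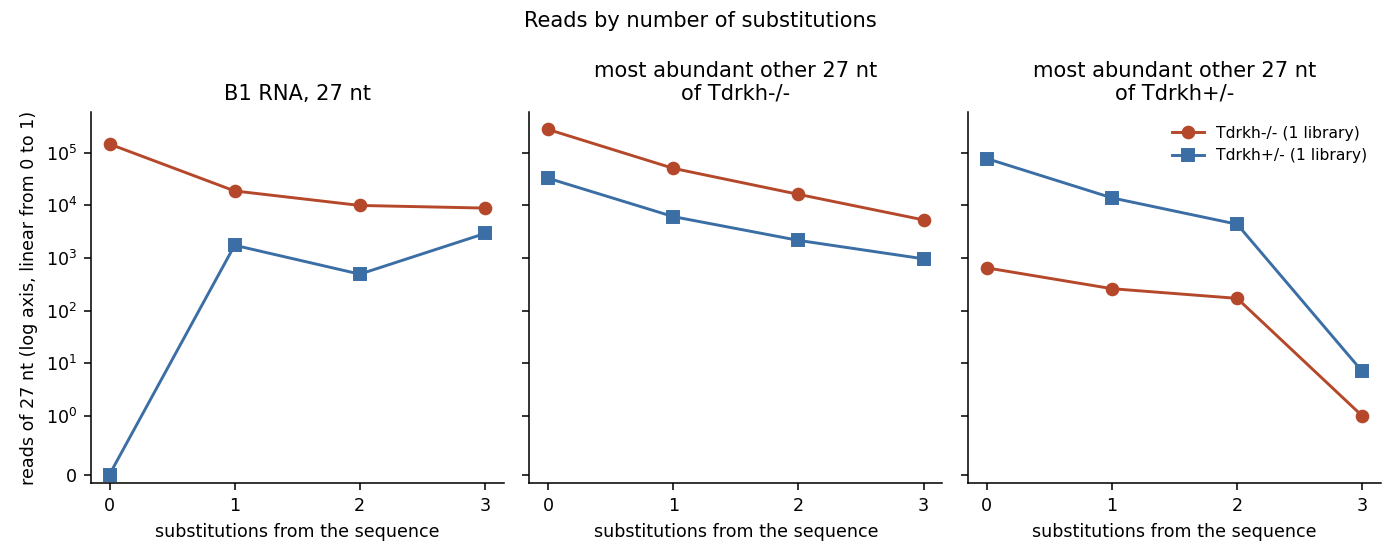
Reads of 27 nt with 0 to 3 substitutions to the B1 RNA (left) and to the most abundant other 27-nt sequence of Tdrkh-/- (middle) and of Tdrkh+/- (right), in Tdrkh-/- (circles) and Tdrkh+/- (squares), on a log axis that is linear from 0 to 1. In Tdrkh+/- the B1 RNA goes from 0 reads at 0 substitutions to 2917 at 3, and the comparison sequences fall in both libraries.

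Reads with free 3′ ends were also few near the member sequences in Tdrkh+/-. Reads that begin with the first 18 nt of the RNA numbered 320636 in Tdrkh-/- and 698 in Tdrkh+/-. In Tdrkh-/- 93.0% of them matched a member over their whole length, 5.37% were 1 base away and 1.17% were 2 away. In Tdrkh+/- 0 reads matched, 1 read was 1 base away and 2 reads were 2 away, while 483 reads were 3 away and 212 further. The most abundant of them in Tdrkh+/- was the 27-nt form with the changed 3′ end printed above, at 118 reads in Tdrkh-/- and 97 in Tdrkh+/-, followed by a 26-nt form with 42 and 60 reads. Reads that differed in 3 or more bases numbered 1404 in Tdrkh-/- and 695 in Tdrkh+/-, so the gap between the libraries was far smaller there than among exact matches.

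The 0 of the T form in Tdrkh+/- is a count of listed reads, and the ratio of 5196 holds for exact matches alone. The filters between reads and tables were not given in the sources used here, and their part in this count was not tested. Of 59 sequences of 24 to 30 nt with at least 10000 reads in Tdrkh-/-, 3 were listed with 0 in Tdrkh+/-. These 3 are the 27-nt and 26-nt members and the C form at 26 nt, so the members among them follow from the choice of genes. At 1000 reads or more, 25 of 847 were listed with 0 in Tdrkh+/-, of which 17 begin within 1 base of the first 15 nt of the B1 RNA. In the other direction 0 of 78 sequences with at least 10000 reads in Tdrkh+/- and 5 of 1763 with at least 1000 were listed with 0 in Tdrkh-/-, the T2A form among the 5.

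Next to the leading 5′ end, the segment had a second group of starts that both libraries listed. At 26 nt downstream, the base after the end of the 26-nt form, 8344 reads in Tdrkh-/- and 858 in Tdrkh+/- were 1 base away from a member, from 397 and 160 sequences, and 97.1% and 88.0% of them were 31 to 40 nt. At 27 nt downstream there were 1132 and 306 such reads. Exact member reads were listed 28 nt downstream with 1578 reads in Tdrkh-/- and 0 in Tdrkh+/-, and 48 nt downstream with 202 and 0. In Tdrkh+/- the exact member start with most reads in the segment was 22 nt downstream, with 0 reads in Tdrkh-/- and 18 in Tdrkh+/-. Its 2 most abundant sequences, of 24 and 26 nt with 11 and 5 reads, matched Gm43414 and 429 and 402 genes in all.

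**Figure D5:**
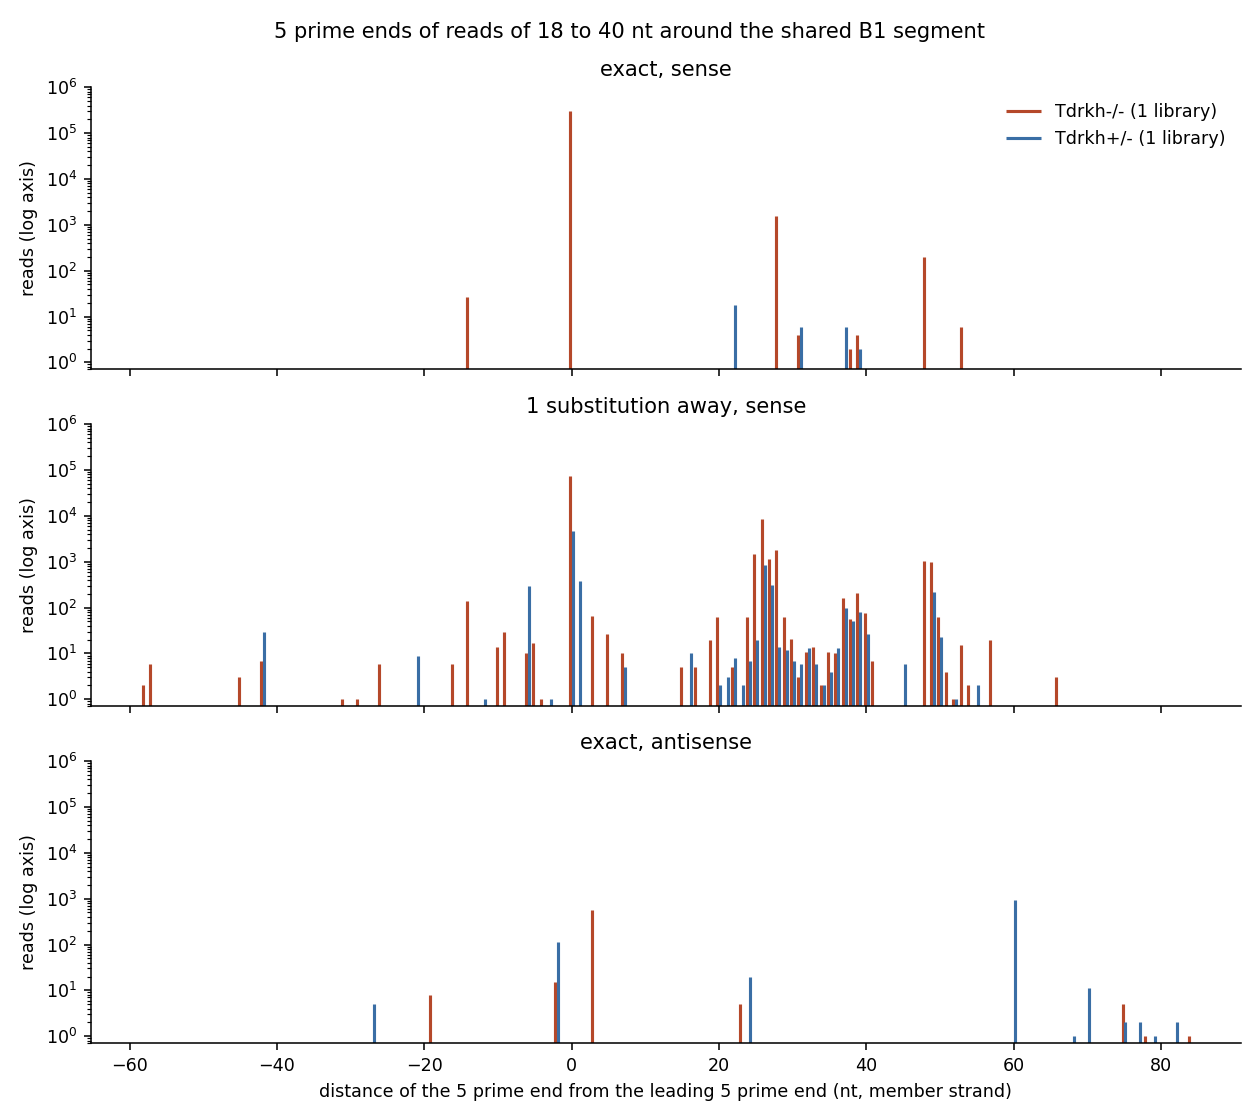
Reads of 18 to 40 nt by the distance of their 5′ end from the leading 5′ end, for exact sense matches (top), sense reads 1 substitution away (middle) and exact antisense matches (bottom), in Tdrkh-/- and Tdrkh+/-, on log axes. The exact sense reads peak at 0 with 298264 reads in Tdrkh-/- and 0 in Tdrkh+/-, while reads 1 substitution away are listed in both libraries at 0 and from 25 to 28.

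The base composition of the reads differed with the start listed. Among member reads of 24 to 30 nt, 99.95% began with U in Tdrkh-/- and 33.3% (19.8 to 50.4) of 33 reads in Tdrkh+/-. A at position 10 was found in 2 of 180365 reads in Tdrkh-/-, which is 0.00111%, and in 28 of 33 in Tdrkh+/-, which is 84.8% (69.1 to 93.3). The 27-nt RNA has T at position 10, so its count fixes the Tdrkh-/- value. At the other positions from 2 to 24 the share of A among the 33 Tdrkh+/- reads reached 78.8%, against 84.8% at position 10. Among reads 1 base away of 24 to 30 nt, 95.7% began with U in Tdrkh-/- and 85.5% in Tdrkh+/-, and 0.431% and 4.77% had A at position 10. At 31 to 37 nt, where the starts 26 nt downstream lead, 74.5% (73.3 to 75.7) of the reads 1 base away had A at position 10 in Tdrkh-/- and 56.5% (52.0 to 60.9) in Tdrkh+/-, with up to 81.8% and 73.2% at other positions.

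On the opposite strand the members together had fewer reads of 24 to 30 nt in Tdrkh-/-, but not all of them did at all lengths. Antisense reads of 24 to 30 nt that matched the members exactly numbered 38 in Tdrkh-/- against 234 in Tdrkh+/-, a ratio of 0.154 (0.107 to 0.218). Over 18 to 40 nt there were 679 and 1338, and at 31 to 37 nt 17 and 23, a ratio of 0.703 (0.352 to 1.37). Gm45571 went the other way over 18 to 40 nt, with 468 antisense reads in Tdrkh-/- against 16 in Tdrkh+/-, a ratio of 27.8 (16.9 to 49.1). At 24 to 30 nt it had 5 and 6. Its most abundant antisense sequence, of 21 nt with 372 reads in Tdrkh-/-, matched 191 genes and so is not particular to Gm45571. Of the antisense reads of all members, 568 in Tdrkh-/- had their 5′ end 3 nt downstream of the leading 5′ end, with 0 in Tdrkh+/-. In Tdrkh+/- 915 had it 60 nt downstream, with 0 in Tdrkh-/-, and the most abundant sequence there matched 451 genes. At 2 nt upstream there were 15 and 111. A 10-nt overlap with the leading 5′ end needs an antisense 5′ end 9 nt downstream, where neither library listed a read. Over all member starts, 0 of 900204 opposite-strand pairs of 24 to 30 nt in Tdrkh-/- and 0 of 721 in Tdrkh+/- overlapped by 10 nt, with pairs weighed by the product of their counts. The Tdrkh-/- pairs rest on 5 antisense reads.

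Other sequences that match as many genes were listed in Tdrkh+/- at high counts. Among sequences of 24 to 30 nt that match 6 to 20 genes, as the 27-nt RNA does, reads numbered 1221430 in Tdrkh-/- against 484346 in Tdrkh+/-, a ratio of 2.40 (2.39 to 2.41), and the most abundant had 145466 reads in Tdrkh-/-, which is the B1 RNA, and 35010 in Tdrkh+/-. Without reads that begin like the B1 RNA the ratio was 2.04. Sequences in 1 gene had a ratio of 0.360 and those in 21 to 50 genes 2.43. At 31 to 37 nt the ratio was 18.04 for 6 to 20 genes and 4.06 for 1 gene.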

How the data were processed

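The deposited tables give raw read counts per distinct sequence, 1 table for each library; per the labels' protocols, RNAs of 15 to 40 nt were gel-purified, prepared with an Illumina small RNA kit and read on a Genome Analyzer II. Bowtie and the mouse build mm9 come from the submitters' processing notes, with versions, adapter trimming, mismatch limits and filtering steps not given in the sources used here. Members, windows and lists were chosen with earlier results of these data known. All sequences were matched over their whole length to the GENCODE M21 transcripts (GRCm38), both strands, in Python 3.11.15 with NumPy 2.4.6, pandas 2.3.3 and Numba 0.67.0, and the members again with 1 substitution allowed. Positions were read on 1 transcript for each gene, the longest with the 27-nt sequence. Levels are reads per microRNA read, that is reads of 18 to 25 nt in sense to microRNA genes. In ratios, 3 counts per library stood as the floor for a count of 0. Ratios carry exact conditional binomial and shares Wilson intervals at 95% (SciPy 1.17.1), and no test was run. Genes were compared at 500 or more divided reads of 24 to 30 nt, past 2-fold, with matches to structural RNA genes left out. Named besides the members are the 5 other genes with most member reads, ties by symbol, and the most abundant sequences and 5′ ends. The matchers and ratios were checked on sampled and simulated data. No genome was used, so copies outside transcripts were not analysed here. Alternatives were another scaling, distinct sequences, sequences read once left out, narrower windows and other definitions of a member read, with 1 added after seeing the data, the leading 5′ end left out.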

Additional observations from a re-analysis of the deposited data

How the results depend on the processing

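No paired analysis was possible because there is 1 library per genotype and no test. The values of the ratios of member reads and of reads 1 base away were above 1 under every alternative run, but 1 interval included 1. For member reads of 24 to 30 nt the ratio was 1.55 (0.639 to 3.81) with each distinct sequence counted once, 16398 at 26 to 28 nt, 252 for reads that share the first 18 nt of a member sequence and 2.56 without the leading 5′ end. For member reads of 31 to 37 nt those values were 5.89 for distinct sequences, 2.61 for the first 18 nt and 5.39 without the leading 5′ end. For reads 1 base away of 24 to 30 nt the ratio was 10.2 per read listed, 3.87 for distinct sequences, 11.9 at 26 to 28 nt, 5.82 without exact matches to any transcript and 2.13 without the leading 5′ end, and at 31 to 37 nt 7.48 per read listed, 3.09 for distinct sequences and 12.2 without sequences read once.

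Counting each distinct sequence once, the leading 5′ end held 53.8% of members in Tdrkh-/-, a 5′ U was found in 61.5% there, and A at position 10 in 7.69% in Tdrkh-/- and 54.5% in Tdrkh+/-. At 26 to 28 nt the leading 5′ end and a 5′ U each held 99.99% in Tdrkh-/-, a 5′ U 10% in Tdrkh+/-, and A at position 10 0% and 50%; without sequences read once the last was 100% in Tdrkh+/-. The Tdrkh-/- table gave no opposite-strand pairs at 26 to 28 nt. By number of genes matched, the 24 to 30 nt ratio crossed 1 for 6 to 20 genes with distinct sequences (0.743), for 51 to 200 genes per read listed (0.828), with distinct sequences (0.701) and in the narrower window (0.688), and for over 200 genes at 26 to 28 nt (1.70). The causes were not tested. The 33 member reads of 24 to 30 nt in Tdrkh+/- limit every share given for that library.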
